A study of Homo sapiens with 6 samples.

Results

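The HOX genes lie in 4 clusters, HOXA on chromosome 7, HOXB on chromosome 17, HOXC on chromosome 12 and HOXD on chromosome 2. They encode homeodomain transcription factors that set position along the body axis, and genes that neighbour each other in a cluster are switched on in order during development. In the adult many of them stay silent under Polycomb repression, while posterior members such as HOXB13 remain active in the prostate, where HOXB13 is a partner of the androgen receptor. TRIM24 reads a histone H3 tail that is unmethylated at lysine K4 and acetylated at lysine K23, and it is a coactivator of the androgen receptor.

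The clusters were chosen by 4 windows in hg19, and 38 HOX genes are listed for them: 10 of HOXA, 10 of HOXB, 9 of HOXC and 9 of HOXD. The windows are chr7:27130000-27250000 for HOXA, chr17:46600000-46810000 for HOXB, chr12:54330000-54450000 for HOXC and chr2:176940000-177060000 for HOXD. A TRIM24 peak belongs to a cluster if its midpoint lies in the window. By this rule 81 of the 37470 peaks in 3 deposited lists were members. The windows were proposed with the positions and scores of these same peaks known, so the counts and scores below are a description and carry no test.

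TRIM24 was mapped by chromatin immunoprecipitation and sequencing, with an antibody against TRIM24, in LNCaP and LNCaP-abl cells. LNCaP is a human prostate cancer line that depends on androgen, and LNCaP-abl is its castration-resistant derivative, always kept in charcoal-stripped serum. LNCaP cells spent 72 h without hormone and then 4 h with ethanol vehicle or with 10 nM DHT, the androgen dihydrotestosterone; LNCaP-abl cells had vehicle for 4 h. Each condition had 1 TRIM24 library, with no replicate check, and the lists give no read depth. The lists held 9744 peaks for LNCaP vehicle, 7105 for LNCaP DHT and 20621 for LNCaP-abl. The score of a peak is the authors' own, and was read here as −log10 of a significance value (p or q). A score of this kind rises with depth, so scores are read against other peaks of the same list only. RNA or other markers of the cell lines were not analysed here.

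Positions of peaks are in hg19, and no gene annotation of that build was used here, so no peak is assigned to a single gene. The order of the genes comes from RefSeq on another assembly (GRCh38.p14), where all 38 listed names were found. With rising position, the HOXA window runs from HOXA2, HOXA3 and HOXA4 to HOXA10, HOXA11 and HOXA13. The HOXB window runs from HOXB1 to HOXB9 and then HOXB13. HOXC and HOXD run the other way, from HOXC13 to HOXC4 and from HOXD13 to HOXD1. HOXC4, HOXC5 and HOXC6 share the same place in that order, at the end of HOXC.

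LNCaP-abl had many more TRIM24 peaks in the HOX clusters than LNCaP in the full lists, and most of them were weak for that list. The LNCaP-abl list held 59 HOX peaks, 22 in HOXA, 13 in HOXB, 12 in HOXC and 12 in HOXD. LNCaP vehicle held 15, with 4, 4, 4 and 3 in that order of clusters. LNCaP DHT held 7, with 3, 2, 1 and 1. The HOX windows held more peaks per length than the genome in each of the 3 lists. In LNCaP-abl they had 10.4 peaks per 100 kb, against 0.675 over the nuclear chromosomes, a ratio of 15.3. In LNCaP vehicle they had 2.63 against 0.319, a ratio of 8.26, and in LNCaP DHT 1.23 against 0.232, a ratio of 5.28. HOXA was the densest in LNCaP-abl, at 18.3 peaks per 100 kb, and HOXB the sparsest, at 6.19.

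**Figure D1:**
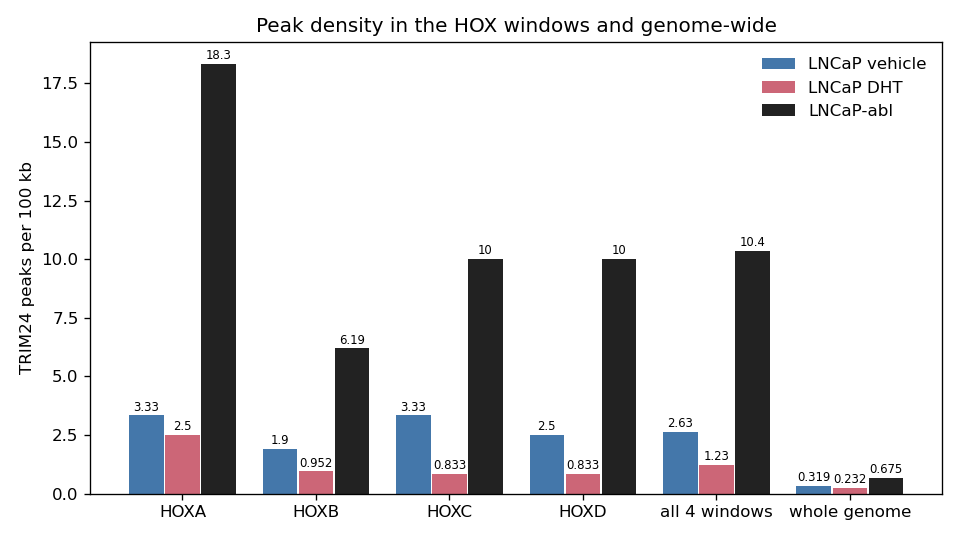
TRIM24 peaks per 100 kb (bars, one colour per list) in each HOX window, in all 4 windows and over the nuclear chromosomes; there is 1 library per condition, so bars carry no error. HOXA in LNCaP-abl stands highest at 18.3 peaks per 100 kb, and each list is denser in each HOX window than over the genome. For LNCaP DHT in HOXC and HOXD this rests on 1 peak each. Any 120 kb window with 1 peak has 0.833 per 100 kb, above the 0.232 of that list over the genome.

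The larger number in LNCaP-abl came from the lower part of its ranked list. With each list taken at its 7105 best-scoring peaks, the length of the shortest, LNCaP vehicle held 12 HOX peaks, LNCaP-abl 8 and LNCaP DHT 7. The ratios of HOX density to genome density were then 9.06, 6.03 and 5.28. At this length HOXA had 5 LNCaP-abl peaks, HOXB 1, HOXC 2 and HOXD 0. The LNCaP vehicle list had 3, 3, 4 and 2 in the same clusters. The counts of the full lists therefore turned over between LNCaP-abl and LNCaP vehicle when list length was made equal. Within the best 1000 peaks, LNCaP-abl had 1 HOX peak, LNCaP vehicle 0 and LNCaP DHT 1.

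**Figure D2:**
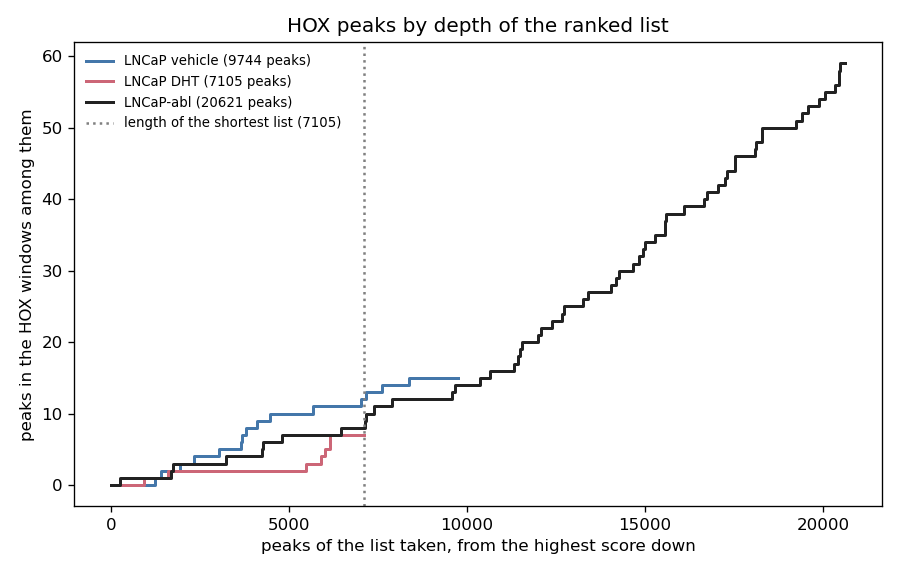
Number of HOX peaks (vertical axis) among the best-scoring peaks of each list (horizontal axis, peaks taken from the highest score down); the dotted line marks 7105 peaks. The LNCaP-abl line lies below that of LNCaP vehicle at 7105 peaks, with 8 against 12, and climbs to 59 only at the end of its longer list.

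The scores of HOX peaks sat below the middle of the LNCaP-abl list. Their median score was 11.3, against 26.1 for the list, and their median position was 69.3% of the way down from the best peak. Of the 59 peaks, 14 (23.7%) were in the better-scoring 50% of the list and 3 (5.08%) in its best 10%. They were also narrower, with a median width of 343 bp against 528 bp. LNCaP DHT had a similar placement, with 2 of 7 peaks (28.6%) in the better 50% and a median score of 4.48 against 6.82. In LNCaP vehicle 10 of 15 HOX peaks (66.7%) were in the better 50%, with a median score of 7.64 against 6.46, although 0 of them reached the best 10%.

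The 4 clusters differed in how high their best LNCaP-abl peaks ranked. HOXC peaks had a median score of 22.2, HOXA peaks 14.8, HOXB peaks 12.2 and HOXD peaks 6.94. HOXA, HOXB and HOXC each placed 1 peak in the best 10% of the list. HOXD placed 0 of 12 in the better-scoring 50%, and its highest score was 16.6. HOXA and HOXC had 7 of 22 and 5 of 12 in the better 50%, and HOXB 2 of 13. Neighbouring peaks of a cluster share a library and are not independent, so these counts describe the lists and were not tested.

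**Figure D3:**
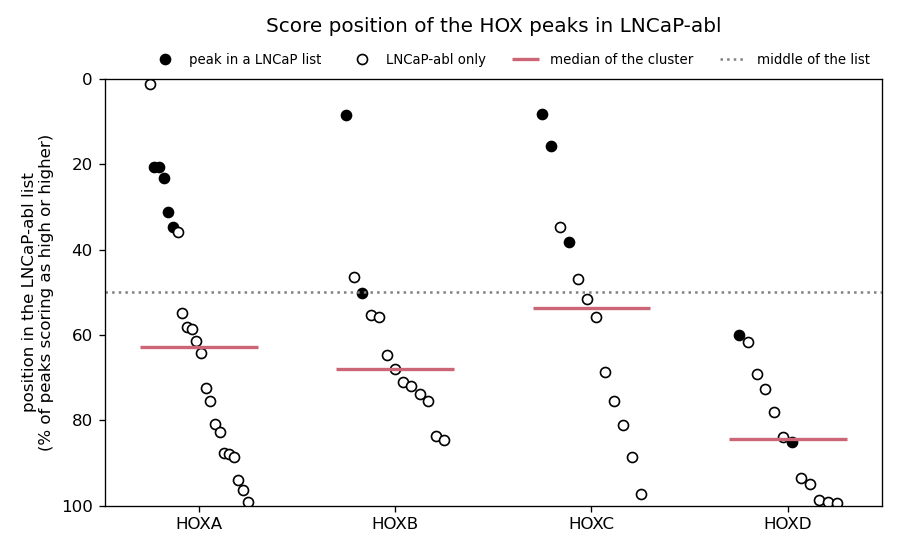
Position of each HOX peak in the LNCaP-abl list (vertical axis, percent of the list scoring as high or higher, best at the top) by cluster; filled points overlap a peak of a LNCaP list, open points do not, red bars are medians and the dotted line is the middle of the list. HOXD has 0 of 12 points above the middle, while a single open HOXA point lies at 1.25%.

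The comparison of LNCaP-abl with LNCaP asks which TRIM24 sites go with castration-resistant growth. In the HOX clusters 10 of the 59 LNCaP-abl peaks overlapped a LNCaP vehicle peak (16.9%, exact Clopper-Pearson 95% interval 8.44 to 29.0), against 36.0% of all LNCaP-abl peaks. A LNCaP DHT peak was found at 7 of the 59 (11.9%, 4.91 to 22.9), against 27.4% of the list. A peak in either LNCaP list was found at 12 (20.3%, 10.98 to 32.8), against 42.2%. The intervals cover counting error only and treat the peaks as independent, which neighbouring peaks of a cluster are not. Since HOX peaks sat low in the list, the share of the whole list was also weighted to the score deciles of the HOX peaks, a step added after the values were seen. That gave 22.3% for vehicle, 16.5% for DHT and 27.3% for either list. These were nearer to the HOX shares than the unweighted shares were. Whether score position accounts for the lower HOX shares was not tested. In lists of 7105 peaks, 5 of the 8 HOX peaks of LNCaP-abl (62.5%) had a vehicle peak and 4 of 8 a DHT peak, against 61.0% and 57.4% of the whole LNCaP-abl list at that length. Where the overlap had to cover 50% of both peaks, 1 of the 59 (1.69%) had a vehicle peak, against 12.4% of all LNCaP-abl peaks. A DHT peak was then found at 2 of the 59 (3.39%), against 8.44%.

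In the other direction nearly all LNCaP peaks of the HOX clusters were present in LNCaP-abl. A LNCaP-abl peak overlapped 14 of the 15 vehicle peaks (93.3%, 68.1 to 99.8), against 88.4% of all vehicle peaks. It overlapped 7 of the 7 DHT peaks, against 88.8% of that list. Most lay within the wider LNCaP-abl peak from end to end: 12 of 15 vehicle peaks, against 74.2% of the list, and 7 of 7 DHT peaks, against 74.6%. These shares are close to those of the whole lists. Joined over the 3 lists, the 81 peaks formed 60 regions. Of these, 47 held a LNCaP-abl peak alone, 5 held all 3 lists, 5 vehicle and LNCaP-abl, 2 DHT and LNCaP-abl, and 1 a vehicle peak alone.

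The comparison of DHT with vehicle asks which sites go with 4 h of androgen in LNCaP. In the HOX clusters 5 of the 15 vehicle peaks overlapped a DHT peak (33.3%, 11.8 to 61.6), against 48.6% of all vehicle peaks. Of the 7 DHT peaks, 5 overlapped a vehicle peak (71.4%, 29.0 to 96.3), against 66.7% of all DHT peaks. Both list shares lie within these wide intervals. The other 2 DHT peaks were both in HOXA and both had a LNCaP-abl peak. With peaks less than 1 kb apart counted as shared, 9 of 15 vehicle peaks (60%) had a DHT peak. This was close to the 59.0% of all vehicle peaks under the same rule. Under the other settings the HOX share stayed below that of the list. It was 20% (3 of 15) against 32.5% where the shared stretch had to span 50% of both peaks. Peaks set to 400 bp gave 40% (6 of 15) against 50.4%. Lists of equal length gave 41.7% (5 of 12) against 57.5%. The better-scoring 50% gave 20% (2 of 10) against 46.6%. These HOX shares all lay within the interval of 11.8 to 61.6.

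**Figure D4:**
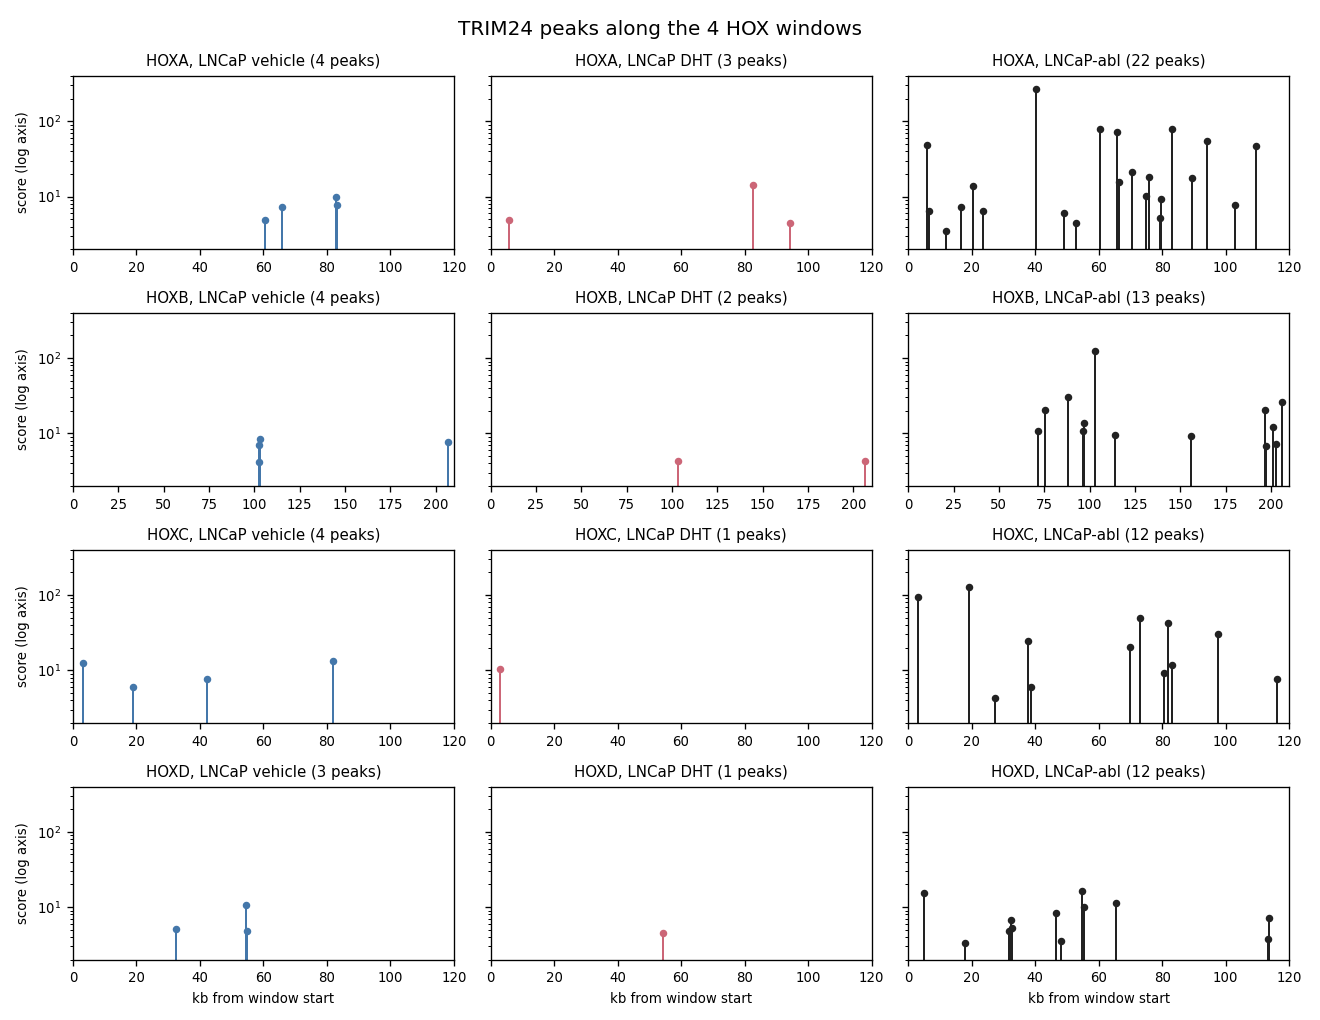
TRIM24 peaks along the HOX windows: each stem is a peak at its midpoint (horizontal axis, kb from the window's lower edge), its height is the authors' score (log axis), with clusters in rows and lists in columns. The 22 LNCaP-abl peaks of HOXA are spread along the window, with a longest free stretch of 15.7 kb, and the first 71.3 kb of HOXB hold no peak in any list.

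HOXA holds genes of anterior identity such as HOXA2 and HOXA3 at its lower end and posterior genes such as HOXA9, a leukaemia-associated factor, and HOXA13, needed in limb and genital development, towards its upper end. The highest-scoring HOX peak of the 3 lists was here, at chr7:27169494-27170888 in LNCaP-abl, 1395 bp wide with a score of 265.7 and rank 257 of 20621 (the best 1.25%). It had no peak in either LNCaP list, and the nearest LNCaP peaks were 19.4 kb away under vehicle and 33.5 kb away under DHT. No other HOX peak restricted to LNCaP-abl scored above 49.1.

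The next HOXA peaks of LNCaP-abl were shared with LNCaP. A 1427 bp peak at chr7:27212445-27213871, with a score of 79.2, covered vehicle peaks at chr7:27212510-27212911 (score 9.84) and chr7:27213045-27213634 (7.64). It also covered the best HOX peak under DHT, at chr7:27212501-27212791 with a score of 14.4, which ranked in the best 12.8% of the DHT list. This was the only HOXA region held by all 3 lists. Further peaks, at chr7:27189911-27190767 (78.7) and chr7:27195470-27196106 (72.5), had vehicle peaks at chr7:27190292-27190491 (4.92) and chr7:27195589-27195901 (7.29) and no DHT peak. Those at chr7:27223899-27224644 (55.5) and chr7:27135588-27136292 (48.8) had DHT peaks at chr7:27224134-27224364 (4.41) and chr7:27135638-27136024 (4.95) and no vehicle peak. The remaining 16 LNCaP-abl peaks of HOXA, none with a LNCaP partner, scored between 3.48 and 46.8. The vehicle list was empty over the first 60.3 kb of the window, on the side of HOXA2, and the DHT list had a free stretch of 76.5 kb. The longest free stretch of LNCaP-abl was 15.7 kb, just below its best peak.

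HOXB runs from HOXB1, an early hindbrain gene, to HOXB13, the prostate-lineage factor at its far end. No list had a peak in the first 71.3 kb of the window, on the side of HOXB1. The strongest LNCaP-abl peak was at chr17:46702229-46703702, 1474 bp wide with a score of 126.1, in the best 8.37% of the list. It covered 3 vehicle peaks, at chr17:46702332-46702546 (score 6.95), chr17:46702699-46702898 (4.22) and chr17:46703198-46703444 (8.54). The DHT peak at chr17:46703033-46703554 (4.33) lay inside it as well. A second region of all 3 lists stood near the upper edge, on the side of HOXB13. There LNCaP-abl had a peak at chr17:46805580-46806762 with a score of 25.9, vehicle one at chr17:46806605-46806854 (7.69) and DHT one at chr17:46806471-46806670 (4.33). These were the only HOXB regions with a LNCaP peak. The other leading LNCaP-abl peaks were at chr17:46687579-46688242 (30.8), chr17:46796262-46797025 (20.7) and chr17:46675158-46675485 (20.2). The remaining 8 scored between 6.89 and 13.6. From chr17:46796262 up to this edge lay 5 of the 13 LNCaP-abl peaks, and the midpoint of the next peak outside was 0.66 kb past the edge, with a score of 45.8.

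HOXC runs from HOXC13, a hair and nail keratin regulator, to HOXC4, which shares its listed RefSeq promoter with HOXC5. Its best LNCaP-abl peak, at chr12:54348587-54349412 with a score of 127.5 (the best 8.18%), overlapped a low vehicle peak at chr12:54348900-54349148 (5.95) and no DHT peak. A 1661 bp peak at chr12:54332191-54333851, on the side of HOXC13, scored 93.3 and was the widest of the 59. It covered peaks of both LNCaP lists, at chr12:54332906-54333668 under vehicle (12.5) and chr12:54332519-54333698 under DHT (10.5). That DHT peak was the only one in HOXC. The best-ranked vehicle peak of all 4 clusters was at chr12:54411703-54412049, with a score of 13.1 (the best 12.9% of its list), inside a LNCaP-abl peak at chr12:54411441-54412254 (42.8). The only LNCaP peak of the clusters without a LNCaP-abl partner was also here, under vehicle at chr12:54372109-54372366 with a score of 7.69. It fell in the longest stretch of HOXC free of LNCaP-abl peaks, 31.1 kb. Without a LNCaP partner, LNCaP-abl peaks at chr12:54402613-54403133 (49.1) and chr12:54426983-54428083 (30.3) led, and the remaining 7 scored between 4.32 and 24.1.

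HOXD runs from HOXD13, needed for digit formation, to HOXD1. It had as many LNCaP-abl peaks as HOXC, at lower scores. The highest, at chr2:176994194-176995113 with a score of 16.6, ranked at 60.0% of the list. It covered vehicle peaks at chr2:176994233-176994549 (10.6) and chr2:176994724-176994962 (4.76) and the only DHT peak of the cluster, at chr2:176994347-176994561 (4.48). In the vehicle list the first of these ranked in the best 19.8%. A second shared site had a LNCaP-abl peak at chr2:176972136-176972401 (6.81) and a vehicle peak at chr2:176972217-176972460 (5.05). The other leading LNCaP-abl peaks were at chr2:176944642-176945404 (15.4), chr2:177005299-177005596 (11.3), chr2:176995183-176995455 (10.1) and chr2:176986605-176986813 (8.34). The remaining 6 scored between 3.35 and 7.06. No list had a peak between 177005597 and 177053185, a stretch of 47.6 kb on the side of HOXD1.

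LNCaP-abl peaks were sparser on both sides of each cluster than within it. In stretches as long as the window on each side, LNCaP-abl had 0 and 4 peaks beside the 22 of HOXA, 2 and 6 beside the 13 of HOXB, 0 and 1 beside the 12 of HOXC, and 1 and 1 beside the 12 of HOXD. LNCaP vehicle had 0 and 0, 0 and 2, 0 and 1, and 0 and 0 in the same order, and LNCaP DHT had 2 in all, both above HOXB, as many as the 2 within it. Of 25439 tiles of 120 kb laid over the genome, 7 held 22 or more LNCaP-abl peaks, 1 of them the tile over HOXA itself. The 12 peaks of HOXC or HOXD were reached by 74 tiles (0.291%), and the 13 of HOXB by 140 of 14528 tiles of 210 kb (0.964%). The LNCaP lists stood out less. For LNCaP vehicle, 405 tiles of 120 kb (1.59%) reached the 4 peaks of HOXA or HOXC, 906 (3.56%) the 3 of HOXD, and 578 tiles of 210 kb (3.98%) the 4 of HOXB. For LNCaP DHT, 488 tiles (1.92%) reached the 3 peaks of HOXA, 4656 (18.3%) the 1 peak of HOXC or HOXD, and 1693 tiles of 210 kb (11.7%) the 2 of HOXB.

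HOX peaks had a close neighbour more often than the whole list in LNCaP-abl and LNCaP vehicle, but not in LNCaP DHT. Of the 59 LNCaP-abl peaks, 24 (40.7%) had another peak of that list less than 1 kb away, against 24.2% of the whole list. The numbers were 7 of 15 (46.7%, against 30.0%) in LNCaP vehicle and 0 of 7 (against 23.2%) in LNCaP DHT. Peaks joined across gaps under 1 kb numbered 46 in LNCaP-abl, 11 in LNCaP vehicle and 7 in LNCaP DHT.

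The start sites of HOXA and HOXD, the clusters with enough promoters to summarise, were both rich in CpG. RefSeq promoters on GRCh38.p14 (250 bases before to 50 after the start) were found for 9 of 10 HOXA genes and 8 of 9 HOXD genes. For HOXB and HOXC, 1 of 10 and 2 of 9 genes matched, so no summary is given for them. The 16 HOXA promoters, 7 of them of HOXA3, had a median of 21.5 CpG dinucleotides, and the 8 HOXD promoters 24.5, against 14 over 34796 different promoters of the table. At least 10 CpG were present in 13 of 16 HOXA promoters and 7 of 8 HOXD promoters, against 56.3% of all. The counts ran from 0, at a HOXA3 promoter, to 44 in HOXA, and from 4 to 36 in HOXD. The letters TTTATNG, a motif of posterior HOX proteins, were found on either strand in 4 of 16 and 1 of 8, against 9.75% of all. The letters AGAACA, a half-site of the androgen receptor, were found in 3 of 16 and 0 of 8, against 14.8%.

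3 promoters are printed as examples: HOXA13 and HOXD1, with the most CpG of their clusters (44 and 36), and HOXD4, with the fewest of HOXD (4). They were picked after their values were seen, and their place relative to the hg19 peaks was not analysed here. Bases run 5′ to 3′ on the gene's strand, minus for HOXA13 and plus for HOXD1 and HOXD4, and capitals mark CpG.

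HOXA13: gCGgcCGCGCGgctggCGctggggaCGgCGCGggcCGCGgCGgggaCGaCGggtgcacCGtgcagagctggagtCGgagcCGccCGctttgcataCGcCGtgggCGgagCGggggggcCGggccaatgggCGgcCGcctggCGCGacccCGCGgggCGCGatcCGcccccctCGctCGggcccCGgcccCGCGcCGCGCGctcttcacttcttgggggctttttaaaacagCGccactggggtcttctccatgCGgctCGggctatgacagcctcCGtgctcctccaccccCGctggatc

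HOXD1: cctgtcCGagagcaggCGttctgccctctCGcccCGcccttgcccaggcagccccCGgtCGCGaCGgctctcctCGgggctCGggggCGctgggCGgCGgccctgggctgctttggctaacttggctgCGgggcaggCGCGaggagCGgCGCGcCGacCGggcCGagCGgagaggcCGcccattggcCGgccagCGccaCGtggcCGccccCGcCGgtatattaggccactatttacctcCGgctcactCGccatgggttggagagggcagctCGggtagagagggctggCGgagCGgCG

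HOXD4: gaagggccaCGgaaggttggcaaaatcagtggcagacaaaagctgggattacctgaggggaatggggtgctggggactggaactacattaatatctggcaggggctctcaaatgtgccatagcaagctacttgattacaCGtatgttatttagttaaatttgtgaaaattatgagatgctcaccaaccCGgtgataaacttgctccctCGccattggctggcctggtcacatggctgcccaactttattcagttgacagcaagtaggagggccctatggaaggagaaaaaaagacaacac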

How the data were processed

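The authors deposited 1 TRIM24 peak list per condition, each with 5 columns and no header; the 3 input libraries of the labels were not used here. FastQC 0.10.0, Bowtie 0.12.7, MACS2 2.0 and build hg19 are named per the submitters' processing notes. A control or cutoff was not given in the sources used here. Because each list begins just above 2, the deposited score was read as −log10 of a significance value; whether p or q, the lists do not say. The read depth is unknown.

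Starts were converted to count from 1. A partner is a peak of another list that overlaps by at least 1 bp. Genome densities use each nuclear chromosome up to its last peak. Every peak of the windows was counted. Named are all LNCaP peaks and, per window, the 5 best LNCaP-abl peaks and those with a LNCaP partner. The overlap code was checked against a plain loop, with peaks drawn from the vehicle and DHT lists and shifted in position. Python 3.11.15, numpy 2.4.6, pandas 2.3.3, scipy 1.17.1 and matplotlib 3.10.9 were used. The members and lists were chosen with earlier results of these data known. With 1 library per condition nothing was tested between conditions. Alternatives varied the overlap rule, the peak width, the list length, the window edges, the joining of peaks, the ranking and the tile grid.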

Additional observations from a re-analysis of the deposited data

How the results depend on the processing

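No paired analysis was possible because there was a single library for each condition, which also prevented leaving one out. The share of LNCaP-abl HOX peaks with a vehicle peak was 1.69% with a reciprocal overlap of at least 50%, against 12.4% of the whole list. It was 62.5% in lists of equal length, against 61.0%, and 35.7% with the better-scoring 50% of peaks, against 36.8%. With a DHT peak it was 3.39% with the reciprocal overlap, against 8.44%, and 50% in lists of equal length, against 57.4%. With the better-scoring 50% of peaks the share with a DHT peak was 14.3% (2 of 14), against 25.8%. The number of LNCaP-abl HOX peaks was 8 in lists of equal length and 14 in the better 50%, and that of DHT HOX peaks was 2 in the better 50%, while LNCaP vehicle kept 10 of 15. Lists of equal length drop the lowest-scoring LNCaP-abl and vehicle peaks, and the better 50% drops those of every list, partner lists included. The HOX peaks sat low in the LNCaP-abl and DHT lists, with median positions of 69.3% and 83.1%. The cause of the shifts was not tested. Peaks set to 400 bp, windows widened by 50 kb, windows taken by any overlap, ranks within width deciles and shifted tiles moved no summed HOX share outside its interval and no summed count by over 1.5 times. The lists of equal length as a base for densities, the weighting to score deciles and the counts along the ranked lists were chosen after seeing the data. Distances to start sites were not run, because they need an hg19 annotation. Unknown depth limits any reading of absent peaks.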

Other observations

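The 6 other tiles of 120 kb with at least as many LNCaP-abl peaks as HOXA were on chromosomes 1, 8, 16, 19 and 22, with 2 on chromosome 19. They held 22 to 30 LNCaP-abl peaks, 3 to 16 LNCaP vehicle peaks and 3 to 9 LNCaP DHT peaks, against 22, 4 and 3 in the tile over HOXA. Of the LNCaP-abl peaks, 4 of 24 in the tile on chromosome 19 from 1080000 to 1200000 had a LNCaP partner, and 13 of 27 in that on chromosome 16 from 720000 to 840000, against 5 of 22 over HOXA. The median LNCaP-abl score was between 9.46 and 17.4 in the 6 tiles and 14.8 over HOXA, all below the 26.1 of the whole list. These tiles were picked after their values were seen.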
